A study of Homo sapiens with 6 samples.

Results

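The epithelial-mesenchymal transition genes examined here were 10 genes chosen by symbol: the cadherins CDH1, CDH2 and CDH3, the adhesion molecule EPCAM, the filament protein gene VIM, and the transcription factors ZEB1, ZEB2, SNAI1, SNAI2 and TWIST1. All 10 were found among the 62438 gene identifiers of the count table. The human cells, labelled MDA-MB-453 (a breast cancer line), received 10 nM siRNA against N6AMT1 (si-N6AMT1, 3 libraries) or 10 nM scrambled siRNA (si-CN, 3 libraries), and RNA was sequenced 48 h later. Both groups received the same lipid transfection reagent, and neither carried another treatment. The labels describe triplicate transfections without saying whether they came from separate cultures, so the tests measure the spread between these libraries, which may be technical. The study asked whether loss of N6AMT1, a candidate adenine N6-methyltransferase of DNA, changes gene expression in breast cancer cells.

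Epithelial-mesenchymal transition is the programme by which cells joined in a sheet loosen their contacts and gain the ability to migrate, in embryos, in wounds and in tumours. CDH1 and EPCAM hold epithelial cells together, whereas CDH2 and VIM are typical of mesenchymal cells. ZEB, SNAI and TWIST factors bind E-box sequences and repress CDH1, and the microRNAs of the miR-200 family act in the other direction by binding the 3′ untranslated regions (3′ UTRs) of ZEB1 and ZEB2 messages.

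The markers of these libraries differed from those the label would lead one to look for. MDA-MB-453 is known as a line of luminal character, but several luminal markers were near 0. SPDEF, a luminal transcription factor, stood at 0.253 TPM in si-CN, KRT19 at 0.797 and GATA3 at 1.92 (TPM is the count per transcript length, scaled to the same sum in every library). FOXA1 stood at 5.34 TPM and ERBB2, the HER2 receptor, at 26.2 TPM, while the luminal keratins KRT8 and KRT18 reached 748.0 and 725.6 TPM. Of 6 basal or myoepithelial markers, 4 were high in si-CN: KRT17 stood at 4176 TPM, KRT5 at 763.5 TPM, KRT14 at 150.4 TPM and TP63 at 93.4 TPM. The other 2 were low, MYH11, a smooth muscle myosin, at 0.508 TPM and OXTR, the oxytocin receptor, at 3.32 TPM. The cells are therefore called only by their label, and no other cell type name is given to them.

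The sequences shown first are those that connect 2 members, ZEB1 and ZEB2, with a shared regulator. The miR-200 family falls into groups by seed, bases 2 to 8 of the mature microRNA, which are printed in capitals in these RefSeq sequences (GRCh38.p14). MIR200B, MIR200A and MIR429 lie on the plus strand of chromosome 1, and MIR200C and MIR141 on the plus strand of chromosome 12.
hsa-miR-200b-3p: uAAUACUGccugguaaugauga
hsa-miR-200c-3p: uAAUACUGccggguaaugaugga
hsa-miR-429: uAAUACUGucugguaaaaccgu
hsa-miR-200a-3p: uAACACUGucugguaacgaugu
hsa-miR-141-3p: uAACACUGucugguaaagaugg
The microRNAs miR-200b, miR-200c and miR-429 share a seed whose complement in a message is CAGTATT, and miR-200a and miR-141 share one whose complement is CAGTGTT. MicroRNAs themselves were not measured in these mRNA libraries. The host transcript MIR200CHG was present at 24 to 40 counts and did not pass the test (log2 fold change 0.03, FDR = 0.958).

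The 3′ UTR of the reference transcript (GENCODE v44 on GRCh37) was searched on its own strand for these 7-base matches. In ZEB1 it spans 2540 bases and held 6 CAGTATT and 3 CAGTGTT matches. In ZEB2 it spans 5370 bases and held 5 CAGTATT and 4 CAGTGTT matches. Both genes thus had 9 matches. Of the 2998 3′ UTRs within 25% of the length of ZEB1, 0.0334% held as many, which is ZEB1 itself. Of the 1500 within 25% of the length of ZEB2, 0.133% held at least as many, ZEB2 included. Of the other 8 members only SNAI2 held a match, 1 CAGTATT. Over all 19407 3′ UTRs searched, 16.1% held CAGTATT and 18.2% held CAGTGTT. The first match of each kind in both genes is shown with 10 bases on either side and the match in capitals.
ZEB1, CAGTATT, chr10:31816551-31816577, plus strand: tttatcttatCAGTATTatcactctta
ZEB1, CAGTGTT, chr10:31816964-31816990, plus strand: tcatcagaatCAGTGTTtgtgattgtg
ZEB2, CAGTATT, chr2:145146610-145146636, minus strand: taccatacatCAGTATTtttattatta
ZEB2, CAGTGTT, chr2:145146794-145146820, minus strand: aaattttgtaCAGTGTTaaggcctaaa

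The sequences TTCACAT and TCACATA, which overlap by 6 bases, were searched as well, but they had been picked on the fold changes of these same libraries and give no independent support. The lower members EPCAM and SNAI2, reported with their values further on, held neither sequence. ZEB2, which was higher, held TTCACAT 2 times, and CDH3 held TCACATA 1 time. Of all 3′ UTRs 20.1% held at least one of them, and of those of a length like that of ZEB2 54.5% did. The sites in ZEB2 and CDH3 are shown with the match in capitals (GRCh37).
ZEB2, TTCACAT, chr2:145143596-145143622, minus strand: ttcttttttcTTCACATgacactgtaa
ZEB2, TTCACAT, chr2:145142963-145142989, minus strand: caccaaagaaTTCACATggggaaaaaa
CDH3, TCACATA, chr16:68732985-68733011, plus strand: ggcatctaacTCACATAccataccatt
A match is a stretch of letters and was not tested as a binding site.

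**Figure D1:**
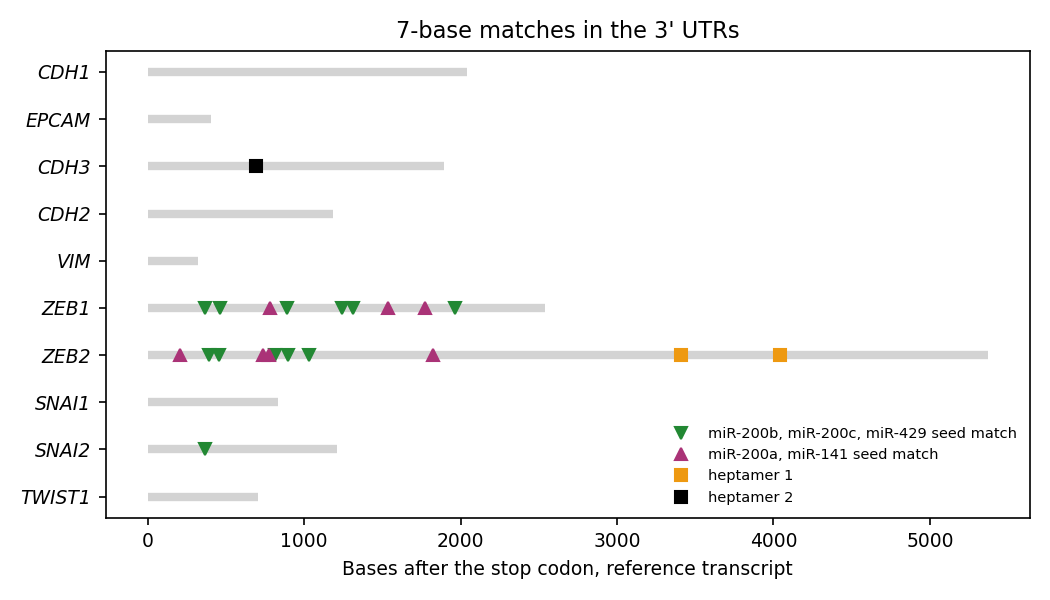
Each grey bar is the 3′ UTR of one member, drawn to scale in bases after the stop codon, and each symbol is a 7-base match; heptamer 1 is TTCACAT and heptamer 2 is TCACATA. ZEB1 and ZEB2 carry 9 miR-200 matches each, SNAI2 carries 1, and the other 7 members carry none.

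Total counts ran from 19739247 to 21289740 per library. N6AMT1 stood at 6.93, 6.86 and 6.65 CPM (counts scaled to library size) in si-CN and at 3.08, 3.53 and 2.93 CPM in si-N6AMT1, a log2 fold change of -1.10 ± 0.12 (SE, FDR = 3.65e-07), so its mRNA fell as labelled. CPM values are scaled by TMM. The FDR comes from edgeR's quasi-likelihood test with Benjamini-Hochberg adjustment over the 17320 genes with enough counts, and genes under 0.05 were called. Of these genes 11.5% were called lower and 9.78% higher, and for 34.9% the si-CN and si-N6AMT1 values were fully separate, in either direction.

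In the si-CN libraries, messages of both states were present together. VIM, the mesenchymal filament protein, stood highest of the 10 at 652.5 ± 2.85 TPM (SD, n = 3), above 99.1% of 20019 protein-coding genes. EPCAM, an epithelial surface protein, was next at 455.0 ± 11.1 TPM, above 98.6% of them. CDH1, the epithelial cadherin, stood lowest at 2.30 ± 0.378 TPM, 283.6 times below VIM, yet still above 43.1% of protein-coding genes.

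Among the 3 classical cadherins, neural cadherin CDH2 took 77.8% ± 1.21 of their summed TPM, placental cadherin CDH3 18.7% ± 0.736 and CDH1 3.55% ± 0.544 (SD, n = 3). CDH2 stood at 50.3 ± 0.136 TPM and CDH3 at 12.1 ± 0.624 TPM. Among the 5 transcription factors, SNAI2 (SLUG), which is also expressed by basal epithelial cells, took 65.1% ± 1.04 of the summed TPM.

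SNAI2 stood at 115.4 ± 1.61 TPM, TWIST1 at 27.4 ± 1.20 TPM and SNAI1 (Snail) at 24.1 ± 1.53 TPM. ZEB1 stood at 6.69 ± 0.443 TPM and ZEB2 at 3.63 ± 0.0333 TPM. The order from the top was VIM, EPCAM, SNAI2, CDH2, TWIST1, SNAI1, CDH3, ZEB1, ZEB2 and CDH1. No neighbours in that order overlapped between libraries in si-CN, nor did any in si-N6AMT1. The closest pair was TWIST1 and SNAI1, where the lowest TWIST1 library had 26.1 TPM and the highest SNAI1 library 25.3 TPM, a gap that the choice of transcript length could move. Taking the longest transcript of each gene in place of the reference transcript raised 9 of the 10 values. EPCAM went to 577.3 TPM and CDH1 to 2.92 TPM. For EPCAM, CDH1, CDH2, CDH3, TWIST1 and SNAI1 the reference transcript is already the longest. Their values moved only through the scaling to a common sum. The order of the 10 was kept, but for TWIST1 (1630 bases) and SNAI1 (1705 bases) this swap could not have changed it.

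All 10 members passed the count filter. After si-N6AMT1, CDH1, ZEB1 and ZEB2 were called higher, EPCAM and SNAI2 were called lower, and the other 5 were not called. Set against the background of 9.78% of genes higher and 11.5% lower, that was 3 of 10 and 2 of 10. The 3 that rose were CDH1, an epithelial cadherin, and ZEB1 and ZEB2, which are known to repress it. The 2 that fell were EPCAM, an epithelial adhesion molecule, and SNAI2, which is also a known repressor of CDH1. The groups did not overlap for 7 members, 4 lower and 3 higher, where 34.9% of all genes showed no overlap. The median log2 fold change over the 10 was -0.04, and over all tested genes it was 0.00.

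CDH1 encodes E-cadherin, the calcium-dependent adhesion protein of epithelial junctions (chr16:68771195-68869440, plus strand, GRCh37). Its CPM was 5.60, 5.33 and 4.01 in si-CN and 7.16, 6.96 and 7.46 in si-N6AMT1. Every si-N6AMT1 library lay above every si-CN library, and si-CN replicate 3 was the lowest of the 6. The log2 fold change was 0.54 ± 0.12 (SE; 95% interval 0.29 to 0.78; FDR = 0.00183), a rise by 45.0%. It rests on few reads, 85 to 110 counts per si-CN library and 142 to 153 per si-N6AMT1 library. Without si-CN replicate 3 the log2 fold change was 0.40 (FDR = 0.0211).

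The share of CDH1 in the summed TPM of the 3 cadherins was 3.93%, 3.8% and 2.93% in si-CN and 5.21%, 5.20% and 5.44% in si-N6AMT1. CDH2 still took 77.0% ± 0.777 and CDH3 17.7% ± 0.721 of the sum in si-N6AMT1 (SD, n = 3). The ratio of CDH2 to CDH1 on the TPM scale was 22.3 ± 4.08 in si-CN and 14.6 ± 0.469 in si-N6AMT1, so CDH2 remained by far the more abundant message in both.

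EPCAM encodes the epithelial cell adhesion molecule, a surface protein of most simple epithelia (chr2:47572297-47614740, plus strand). Its CPM was 324.8, 305.6 and 318.9 in si-CN and 290.1, 289.9 and 293.6 in si-N6AMT1. The 3 si-N6AMT1 libraries lay close together, below all si-CN libraries. The log2 fold change was -0.12 ± 0.02 (SE; 95% interval -0.17 to -0.07; FDR = 7.94e-04). CDH1 and EPCAM, both epithelial adhesion genes, thus moved in opposite directions.

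CDH3 encodes P-cadherin, found in basal cells of stratified and glandular epithelia (chr16:68670092-68761371, plus strand). Its CPM was 24.6, 25.2 and 22.7 in si-CN and 23.3, 21.0 and 22.8 in si-N6AMT1. The groups overlapped, and the log2 fold change of -0.11 (95% interval -0.24 to 0.01; FDR = 0.199) did not pass the test. CDH3 lies next to CDH1 on chromosome 16 on the same strand.

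CDH2 encodes N-cadherin, the cadherin of neural and mesenchymal cells (chr18:25512843-25757910, minus strand). Its CPM was 92.0, 90.0 and 90.3 in si-CN and 87.8, 87.0 and 87.6 in si-N6AMT1. All 3 si-N6AMT1 libraries lay below all si-CN libraries, but by so little that the log2 fold change of -0.05 (95% interval -0.11 to 0.01; FDR = 0.219) did not pass.

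VIM encodes vimentin, the intermediate filament protein of mesenchymal cells (chr10:17270240-17279592, plus strand). Its CPM was 637.6, 630.5 and 627.2 in si-CN and 619.0, 616.5 and 624.0 in si-N6AMT1. The groups again did not overlap, and the log2 fold change of -0.03 (95% interval -0.07 to 0.01; FDR = 0.381) did not pass. With 12269 to 13302 counts per library this was the most precisely measured member, and its interval leaves room for a fall of at most 0.07 on the log2 scale.

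ZEB2 encodes a zinc finger repressor with a homeodomain (chr2:145121931-145278624, minus strand). Its CPM was 15.3, 15.2 and 14.9 in si-CN and 19.5, 19.3 and 18.2 in si-N6AMT1. The si-CN libraries were nearly equal, and all si-N6AMT1 libraries lay above them. The log2 fold change was 0.33 ± 0.06 (SE; 95% interval 0.20 to 0.46; FDR = 5.36e-04), on 299 to 394 counts per library. Its call held under each of the 13 alternative settings, with log2 fold changes from 0.31 to 0.36.

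ZEB1 encodes the related repressor (chr10:31607424-31818742, plus strand). Its CPM was 16.8, 18.0 and 18.8 in si-CN and 21.6, 20.6 and 19.0 in si-N6AMT1. The groups did not overlap, but the highest si-CN library and the lowest si-N6AMT1 library nearly touched. The log2 fold change was 0.19 ± 0.07 (SE; 95% interval 0.06 to 0.33; FDR = 0.0406), close to the threshold. The call held in 7 of the 13 alternatives and was lost in DESeq2 (adjusted p = 0.148), in the fit with a replicate block (FDR = 0.0547), and without si-CN replicate 1 (FDR = 0.159), si-CN replicate 2 (FDR = 0.0812), si-N6AMT1 replicate 1 (FDR = 0.167) or si-N6AMT1 replicate 2 (FDR = 0.102).

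ZEB1 and ZEB2 are the members with 9 miR-200 matches in the 3′ UTR, as shown above, and both rose. Of 614 tested genes with 3 or more such matches 6.51% were called higher and 27.5% lower, and of 8935 genes with none 12.5% were higher and 11.5% lower. The 3′ UTRs of these gene groups differed in length, with medians of 5392 and 829 bases. The part of UTR length in this difference was not tested.

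SNAI2 was the most abundant of the 5 factors (chr8:49830157-49834299, minus strand). Its CPM was 112.9, 113.2 and 113.3 in si-CN and 104.9, 106.6 and 103.5 in si-N6AMT1. The si-CN libraries were nearly equal and all si-N6AMT1 libraries lay below them. The log2 fold change was -0.11 ± 0.03 (SE; 95% interval -0.16 to -0.05; FDR = 0.00570), so the level fell by 7.17%.

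SNAI1 encodes Snail, a short-lived repressor (chr20:48599517-48605423, plus strand). Its CPM was 19.1, 19.3 and 17.0 in si-CN and 16.6, 16.8 and 17.4 in si-N6AMT1. si-CN replicate 3 lay within the si-N6AMT1 range, and the log2 fold change of -0.12 (95% interval -0.26 to 0.01; FDR = 0.213) did not pass. The point estimate was as large as that of SNAI2, but with 329 to 380 counts per library its interval was wider. The processed pseudogene SNAI1P1 had 0 counts in all 6 libraries and ZEB2P1 at most 1.

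TWIST1 encodes a basic helix-loop-helix factor (chr7:19060614-19157259, minus strand). Its CPM was 20.5, 20.8 and 19.0 in si-CN and 18.8, 21.1 and 20.8 in si-N6AMT1. The groups overlapped fully, with a log2 fold change of 0.01 (95% interval -0.12 to 0.14; FDR = 0.927), and the sign depended on which library was left out.

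The makeup of the 5 factors moved little. On the TPM scale SNAI2 took 65.1% ± 1.04 of their sum in si-CN and 63.4% ± 0.627 in si-N6AMT1, ZEB1 3.77% ± 0.247 and 4.53% ± 0.307, and ZEB2 2.05% ± 0.0148 and 2.70% ± 0.103 (SD, n = 3). The summed TPM of the 5 was 177.2 ± 2.80 in si-CN and 168.7 ± 1.45 in si-N6AMT1.

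**Figure D2:**
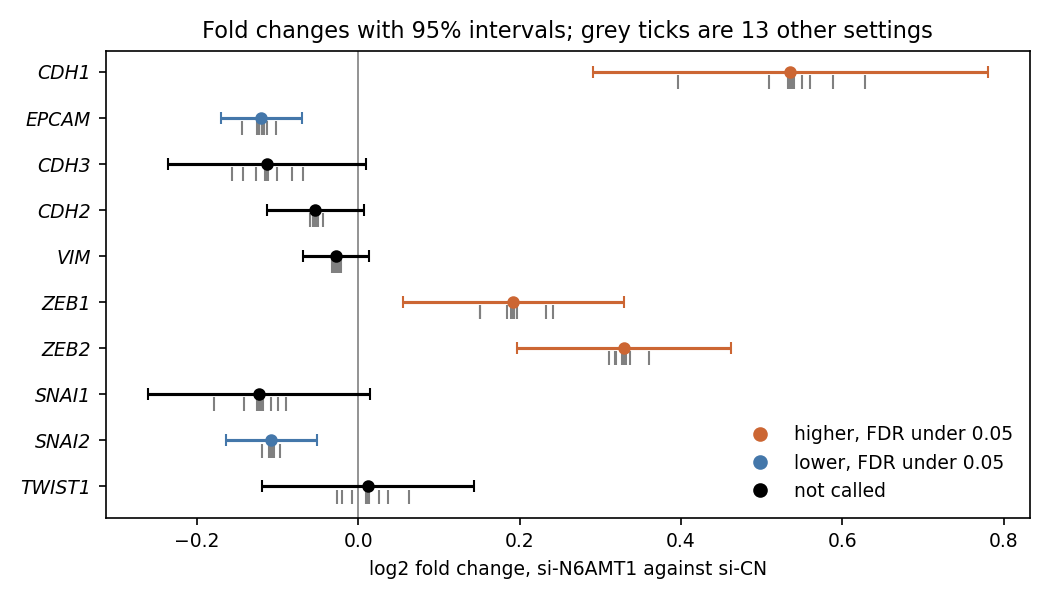
Log2 fold change of each member (point) with its 95% interval (bar) and, as grey ticks, the values under 13 alternative settings. CDH1 (0.54), ZEB2 (0.33) and ZEB1 (0.19) lie above 0 and EPCAM (-0.12) and SNAI2 (-0.11) below it, while the intervals of the other 5 cross 0.

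Transcripts that overlap the members in the annotation were few. VIM-AS1, antisense to VIM, had 17 to 36 counts and a log2 fold change of 0.53 (FDR = 0.121). ZEB1-AS1 had 73 to 86 counts and a log2 fold change of 0.01 (FDR = 0.979). AC009951.1, a pseudogene within ZEB2 on the same strand, had 16 to 41 counts and a log2 fold change of 0.47 (FDR = 0.214). The kit marks strand, but whether the counting used it is not given in the sources used here, so reads of antisense partners may not be told apart. Every other overlapping gene with a value had at most 11 counts in any library.

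Promoter sequences from RefSeq (GRCh38.p14, around each gene's start) were present for 4 members, CDH2, VIM, ZEB1 and ZEB2. The E-box CACCTG or its reverse complement CAGGTG, the sequence that SNAI and ZEB factors bind, was found in 2 of the 7 ZEB1 entries, 1 and 3 times, and in none of the CDH2, VIM and ZEB2 entries. Of all RefSeq promoters searched, 20.6% held one. CDH1, CDH3, EPCAM, SNAI1, SNAI2 and TWIST1 had no entry.

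Partners and regulators of the members were read from lists chosen with earlier results of these data known. Over all tested genes 11.5% were lower and 9.78% higher, and the share of each list is given to be read beside these. Of 18 tested adherens junction and desmosome genes, 6 (33.3%) were lower and 2 (11.1%) higher, with a median log2 fold change of -0.06. Those lower included CTNNA1 (alpha-catenin, -0.18, FDR = 1.09e-06), VCL (vinculin, -0.17) and DSG2 (desmoglein, -0.14), and NECTIN4 rose by 0.42 on the log2 scale. JUP (plakoglobin), the most abundant at 278.3 TPM in si-CN, had a log2 fold change of 0.04 and did not pass. CTNNA1 and VCL, which link cadherins to actin, thus fell while CDH1 itself rose.

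Of 19 tested tight junction and polarity genes, 4 (21.05%) were lower and 3 (15.79%) higher. CLDN1 (claudin 1) rose by 0.30 on the log2 scale (FDR = 3.82e-10), from 207.9 to 256.1 TPM, whereas TJP1 (ZO-1, -0.20), PATJ (-0.17) and CGN (cingulin, -0.26) fell. Of 13 tested regulators that keep the epithelial state, 2 (15.38%) were lower and 1 (7.69%) higher. ESRP1, an epithelial splicing factor, fell by 0.18 and MAL2 by 0.18 on the log2 scale, while EHF rose by 0.45. The most abundant genes of that list were MAL2 at 176.3 TPM and PRSS8 at 82.5 TPM in si-CN. PRSS8 had a log2 fold change of 0.05 and did not pass. The genes of the list that were not tested stood near 0 in si-CN, GRHL2 at 0.0211 TPM, ESRP2 at 0.0871 TPM and RAB25 at 0.0683 TPM.

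Of 28 mesenchymal structural and matrix genes 19 were tested, and 2 were lower and 1 higher. FN1 (fibronectin) rose by 0.22 on the log2 scale, from 176.8 to 205.1 TPM, while AXL, a receptor kinase, fell by 0.23 and CALD1 (caldesmon) by 0.17. COL5A1, a collagen chain gene among the most abundant of the list at 410.0 TPM in si-CN, had a log2 fold change of -0.03 and did not pass. The share of this list called in either direction, 10.5% lower and 5.26% higher, was no greater than that of all genes. Of 7 tested intermediate filament relatives of VIM 2 (28.57%) were lower, SYNM (synemin, -0.55) and LMNB2 (-0.08).

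Of 13 tested other transition transcription factors, 3 (23.08%) were lower and 1 (7.69%) higher. Those lower were TCF12, ID3 and FOXC1, with log2 fold changes from -0.19 to -0.15, and FOXQ1 was higher (0.36). Of 19 corepressors of SNAI1, ZEB1 and ZEB2, 4 (21.05%) were lower and 0 higher. Those lower were LOXL2 (-0.18), BMI1 (-0.19), HDAC1 (-0.08) and RCOR1 (-0.09). KDM1A, the demethylase in the SNAI1 complex, had a log2 fold change of 0.03 and did not pass. Of 16 genes that control the stability of SNAI1 and SNAI2 protein, 6 (37.5%) were lower and 3 (18.75%) higher. MDM2, a ubiquitin ligase, fell by 0.29 and USP37, a deubiquitinase, by 0.25 on the log2 scale, and PAK1 and COPS2 also fell. CSNK1E, a kinase, rose by 0.10, while CSNK1A1, another kinase of the list, fell by 0.07.

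Of 15 genes that process or traffic cadherins and EPCAM, 4 (26.67%) were lower and 2 (13.33%) higher. ADAM10, the protease that sheds E-cadherin and N-cadherin, fell by 0.21 on the log2 scale and FURIN, which matures cadherin precursors, by 0.13. NCSTN, a gamma-secretase subunit, rose by 0.14. Of the 19 cadherins that were not members 5 were tested, and CDH13 (-0.27, FDR = 1.73e-06) was the 1 called.

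Some markers of cell types moved as well. Of 6 basal or myoepithelial markers KRT5, KRT14 and TP63 rose (log2 fold changes 0.11, 0.18 and 0.14), and the summed TPM of the list ran from 5176 to 5206 in si-CN and from 5144 to 5281 in si-N6AMT1. Of 9 tested luminal markers KRT8, KRT18 and MUC1 rose by 0.08 to 0.12 on the log2 scale. The luminal list summed to 2382 to 2433 TPM in si-CN and 2515 to 2546 TPM in si-N6AMT1. Called higher were 50.0% of the tested basal and 33.33% of the tested luminal markers, beside 9.78% of all genes. Fibroblast markers summed to 24.8 to 28.3 TPM over the 6 libraries, led by COL1A1 at 17.2 TPM in si-CN, with 0 of 3 tested called. Endothelial markers summed to at most 0.519 TPM in any library. Among leukocyte markers PTPRC stood at 0.0479 TPM in si-CN, and CD68, a lysosomal protein also made outside leukocytes, rose from 185.2 to 261.8 TPM. The part of these shifts in the values of CDH1, EPCAM and SNAI2 was not tested. In bulk RNA a change in the share of one kind of cell and a change of RNA per cell cannot be told apart.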

How the data were processed

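RNA-seq of 6 libraries was analysed. Per the labels and the study's methods, reads from TruSeq stranded mRNA libraries were trimmed with Trim Galore and quantified with kallisto 0.46.0, and the authors deposited estimated counts per gene, rounded to whole numbers and not normalized. Genome build hg19 is named in the submitters' notes. Groups and replicate numbers came from the labels.

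Symbols, positions, transcript lengths and 3′ UTRs came from GENCODE v44 lifted to GRCh37, which matched 62149 of 62438 identifiers. Identifiers without a length held at most 0.137% of counts. Counts were filtered (filterByExpr, minimum count 10), scaled by TMM and tested with edgeR 4.0.16 (quasi-likelihood, group as the only term) in R 4.3.3, with Benjamini-Hochberg FDR over 17320 genes at 0.05. The test was checked on simulated data. TPM used the length of the reference transcript. Alternatives were RLE scaling, no filter, a mean of at least 1 CPM, DESeq2 1.42.0 (the study's tool), limma-voom 3.58.1, a replicate block, library sizes without mitochondrial genes, and each library left out. Library pairs within groups differed by more than sampling noise (chi-square per degree of freedom 1.37 to 1.77), and pairs between groups by 6.89 to 7.80.

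Members and lists were chosen with earlier results of these data known. Named genes were the members, N6AMT1, genes overlapping a member, and picks from each list. The picks were drawn from up to 4 called genes with the smallest FDR and the 2 with the highest TPM. Not all of these were printed, and most of those left out were not called, so the list paragraphs lean towards genes that changed. SPDEF, KRT19, GATA3, FOXA1, ERBB2, GRHL2, ESRP2, RAB25, MYH11, OXTR, PTPRC, SNAI1P1 and ZEB2P1 were named after their values were seen. CDH2-AS1 and PECAM1 had no symbol match. A few list genes are not reported here.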

Additional observations from a re-analysis of the deposited data

How the results depend on the processing

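Over 13 alternative settings and 10 members, 121 of 130 log2 fold changes kept their direction and side of the threshold. CDH1, EPCAM, SNAI2 and ZEB2 were called in 13 of 13, and ZEB1 in 7, with log2 fold changes from 0.15 to 0.24. TWIST1, which was not called, turned to -0.0267 without si-CN replicate 3, -0.0201 without si-N6AMT1 replicate 2 and -0.0077 without si-N6AMT1 replicate 3, within a range of -0.0267 to 0.0631. Members called higher numbered 2 under DESeq2, the replicate block and 4 of the 6 fits that left out a library, and members called lower 2 throughout. DESeq2 called 1257 genes lower and 946 higher in place of 1993 and 1694. The cause was not tested. Leaving out 1 library gave 1540 to 1818 genes lower and 1295 to 1523 higher. With the replicate number as a block, 1804 genes were lower and 1522 higher, and ZEB1 was the 1 member whose call changed. Deviations of libraries with the same number correlated at -0.12, -0.09 and 0.01, so no pairing by number was seen. Libraries within a group differed little beyond sampling noise, so a pairing could have been missed. TPM values moved beyond the spread between libraries with the longest transcript as length, in the range 2.92 (CDH1) to 668.9 (VIM). Depth limits CDH1 most, with 85 to 153 counts per library.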

Other observations

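The TPM ratio of VIM to EPCAM, the most abundant mesenchymal and epithelial members, was 1.41, 1.48 and 1.41 in si-CN and 1.53, 1.53 and 1.53 in si-N6AMT1. It was higher in all 3 si-N6AMT1 libraries, while the TPM ratio of CDH2 to CDH1 was lower in all 3 (19.7, 20.2 and 27 in si-CN; 14.7, 15 and 14.1 in si-N6AMT1). These ratios of mesenchymal to epithelial messages moved in opposite directions, and were chosen after the values were seen.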
